A study of Homo sapiens with 3 samples.

Results

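The 37 genes of the human mitochondrial genome were examined in RNA-seq libraries of primitive neural progenitor cells (pNPCs), an early neural stage derived from the established human embryonic stem cell line H1. Members were taken by symbol, as every gene of the deposited tables whose symbol starts with MT-, and they comprised 13 protein genes, 2 rRNA genes and 22 tRNA genes among 62754 genes in all. The labels give 1 group, wild-type pNPCs, with 3 replicates, so the design holds no treated or mutant cells and no control. The cells were grown in N2 and B27-RA medium with FGF2, CHIR99021, leukemia inhibitory factor, SB431542 and the ROCK inhibitor Y-27632, and the RNA is labelled as polyadenylated. Nothing in the labels tells if each replicate was its own culture, and the spread between libraries may therefore be technical. Totals were 34658454, 38400092 and 30038114 expected counts in replicates 1, 2 and 3. An expected count is RSEM's estimate of the reads that belong to a gene. Of 8 neural progenitor markers 7 reached a TPM of at least 1 in all libraries, and PAX6, at 0.44 ± 0.34 TPM (mean ± SD, n = 3, as in all such values), did not. VIM stood at 1912 ± 194 TPM, NES at 181 ± 21.1 TPM and SOX1, the lowest to pass, at 5.5 ± 2.5 TPM. Of 4 pluripotency markers DPPA4 passed, at 22.0 ± 4.0 TPM, and POU5F1 and NANOG, at 0.11 ± 0.030 and 0.020 ± 0.026 TPM, did not. All 6 mesenchyme and neural crest markers and all 6 neuron markers also passed that minimum. The median of the mesenchyme and neural crest list, 169 ± 70.2 TPM, was above that of the progenitor list, 71.9 ± 12.9 TPM. The neuron list had a median of 32.4 ± 4.6 TPM.

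The mitochondrial genome is a small circle that encodes core subunits of the respiratory complexes and of ATP synthase, with the rRNAs and tRNAs needed to translate them inside the organelle. Each strand is transcribed as a long precursor, and tRNAs that lie between the longer genes mark most of the sites where it is cut. Most mature mRNAs then receive a short poly(A) tail. In human cells MT-ND6, the mRNA transcribed from the light-strand promoter, is known to carry little or no tail, and the rRNAs carry very short ones. Cells that differentiate along the neural lineage are known to rely increasingly on respiration.

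Mitochondrial RNA took 3.10%, 2.43% and 2.80% of the expected counts in replicates 1, 2 and 3 (2.78 ± 0.34%). The 15 mRNA and rRNA genes reached a TPM of at least 1 in all libraries, a level passed by 23.0% of all genes in the tables, and none of the 22 tRNA genes did. TPM scales counts by effective length, the annotated length reduced for the fragment lengths of that library, to the same sum in each library. The mRNAs held 72.7%, 74.2% and 72.9% of the mitochondrial counts, the rRNAs 27.3%, 25.8% and 27.1%, and the tRNAs 10, 0 and 2 counts in total. In each library 11 of the 15 longer genes stood among the 100 genes of highest count.

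Some of the shortest mRNAs share bases with a neighbouring mitochondrial gene. In the annotation 5 pairs of members share bases, and the longest overlaps were those of MT-ATP8 with MT-ATP6 and of MT-ND4L with MT-ND4, each a pair of reading frames on 1 mRNA. Below, the overlap is in capitals and 20 bases on each side are in lower case, read 5′ to 3′ from GENCODE release 29 transcripts (GRCh38, plus strand of the mitochondrial sequence).
MT-ATP8/MT-ATP6, chrM:8507-8592: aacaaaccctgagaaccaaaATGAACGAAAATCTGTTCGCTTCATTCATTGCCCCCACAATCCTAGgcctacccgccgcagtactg
MT-ND4L/MT-ND4, chrM:10740-10786: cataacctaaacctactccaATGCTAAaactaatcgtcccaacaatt
The first overlap has 46 bases, from the ATG that opens MT-ATP6 to the TAG that closes MT-ATP8, and it is 22.2% of MT-ATP8 and 6.75% of MT-ATP6. The second has 7 bases, from the ATG of MT-ND4 to the TAA of MT-ND4L. MT-ATP6 and MT-CO3 shared 1 base, as did the tRNA genes MT-TC and MT-TY, and MT-TI shared 3 bases with MT-TQ on the opposite strand.

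MT-ATP8 (ENSG00000228253.1, chromosome M, 8366 to 8572) encodes a small membrane subunit of ATP synthase, and MT-ATP6 (ENSG00000198899.2, 8527 to 9207) the subunit that forms its proton channel. MT-ATP8 stood at 17357, 22626 and 24761 TPM in replicates 1, 2 and 3, the first place among all genes in each library. Its expected counts ran the other way, with 13517, 10164 and 7587, or 390, 265 and 253 CPM, a count scaled to the same library total. Replicate 1 was thus the lowest library for MT-ATP8 by TPM and the highest by counts. The annotated length of 207 bases was reduced to an effective length of 30.7, 17.3 and 15.1 bases, or 14.8%, 8.35% and 7.31% of it. Divided by annotated length, its level was 1884, 1279 and 1220 CPM per annotated kilobase, which put it at places 27, 44 and 48 among all genes. For MT-ATP6, with 681 bases, the effective length stayed at 68.3%, 62.8% and 62.0% of the annotated length. MT-ATP6 had 4372, 3791 and 4369 TPM and 51601, 42164 and 37342 expected counts.

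Within the MT-ATP8 and MT-ATP6 pair the direction of the difference depended on the length scaling. By TPM MT-ATP8 exceeded MT-ATP6 in 3 of 3 libraries, by 3.97, 5.97 and 5.67 times. Per base of annotated length it lay below MT-ATP6 in 3 of 3 libraries, at 0.862, 0.793 and 0.668 of it. On the log2 scale these ratios averaged 2.36 ± 0.32 and -0.38 ± 0.19, so the sign turned with the length used. The deposited counts of MT-ATP8 were whole numbers in all libraries (within 0.001 of a whole number). Over the joint 842 bases of the 2 genes the level was 2231, 1618 and 1776 CPM per annotated kilobase. MT-ATP6 alone had 2186, 1612 and 1825. It supplies most of the joint bases and counts, so the joint level must lie near its own. An exact permutation of signs over 3 libraries gives no two-sided p below 0.25, so differences between members are given with their spread and without a test.

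MT-ND4L (ENSG00000212907.2, chromosome M, 10470 to 10766) and MT-ND4 (ENSG00000198886.2, 10760 to 12137) encode membrane subunits of complex I, the NADH dehydrogenase that opens the respiratory chain. MT-ND4L had 5752, 3908 and 3348 expected counts and 2377, 2139 and 2509 TPM. MT-ND4 had 91880, 82155 and 75078 expected counts and 3115, 2810 and 3315 TPM. By TPM MT-ND4L stood at 0.763, 0.761 and 0.757 of MT-ND4, nearly the same in each library. Per base of annotated length it stood at 0.290, 0.221 and 0.207 of MT-ND4, highest in replicate 1. MT-ND4L was below MT-ND4 in all libraries on each of these scales, and only the size of the gap moved. MT-ND4L held 5.89%, 4.54% and 4.27% of the counts of the pair, against 17.7% of the summed lengths. For MT-ATP8 the corresponding shares were 20.8%, 19.4% and 16.9% of the counts, against 23.3% of the lengths.

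**Figure D1:**
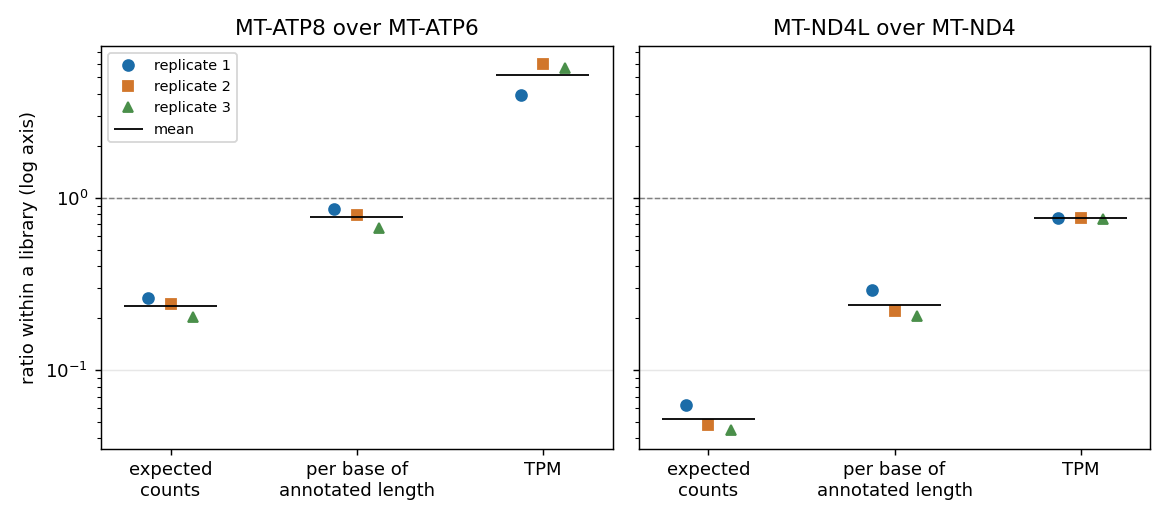
Ratio of MT-ATP8 to MT-ATP6 (left) and of MT-ND4L to MT-ND4 (right) within each library, on a log axis, from expected counts, from counts per base of annotated length and from TPM; symbols are the 3 libraries, black lines the means and the dashed line a ratio of 1. The MT-ATP8 ratio crosses 1 between the annotated length (0.668 to 0.862) and TPM (3.97 to 5.97), and the MT-ND4L ratio stays below 1 on all scales.

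The rRNAs of the mitochondrial ribosome differed in level in this polyadenylated RNA. MT-RNR2 (ENSG00000210082.2, chromosome M, 1671 to 3229), the RNA of the large subunit, had 253571, 196458 and 184671 expected counts, the most of any member in each library, and 7438, 5788 and 7018 TPM. MT-RNR1 (ENSG00000211459.2, 648 to 1601), the RNA of the small subunit, had 39941, 44497 and 43709 expected counts and 2132, 2443 and 3107 TPM. MT-RNR2 exceeded MT-RNR1 by 3.49, 2.37 and 2.26 times on the TPM scale and by 3.88, 2.7 and 2.59 times per base of annotated length. Replicate 1 had the lowest MT-RNR1 and the highest MT-RNR2 value on each of these scales, and its ratio stood apart from the other two. This spread in the ratio was not tested. Because the rRNAs carry only very short tails, their ratio in the whole RNA of the cells was not measured by these values.

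Among the mRNAs, the 3 subunits of complex IV, the cytochrome c oxidase that passes electrons to oxygen, formed a group above the subunits of complex I. MT-CO2 stood at 7133, 5918 and 6650 TPM, MT-CO1 at 5719, 5135 and 6326 TPM and MT-CO3 at 5625, 4638 and 5800 TPM. All 3 were lowest in replicate 2. The range of MT-CO1 overlapped those of MT-CO2 and MT-CO3, whereas every MT-CO2 value lay above every MT-CO3 value. They held 45.9%, 43.7% and 46.1% of the mitochondrial mRNA counts, led by MT-CO1, the catalytic subunit, with 192509, 172044 and 164281 expected counts. MT-CYB, the cytochrome b of complex III, stood at 2637, 2442 and 2757 TPM and held 8.03 ± 0.11% of those counts. Complex V took 7.74 ± 0.53% of them.

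The 7 complex I mRNAs took 37.8%, 40.6% and 38.5% of the mitochondrial mRNA counts. MT-ND3 stood at 3954, 3033 and 3046 TPM, MT-ND1 at 3026, 2988 and 3213 TPM and MT-ND2 at 2638, 2592 and 2419 TPM. MT-ND5, the longest mRNA with 1812 bases, was the lowest of the mRNA and rRNA members by TPM, at 1343, 1517 and 1735. The complex IV median exceeded the complex I median by 1.15 ± 0.18 log2(TPM + 1) units, in 3 of 3 libraries, and by 1.54 ± 0.080 units per annotated length. No complex IV library lay within the range of any complex I gene on the TPM scale, where the lowest complex IV value was 4638 and the highest complex I value 3954.

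In the order of mean TPM, MT-ATP8 came first, followed by MT-RNR2, MT-CO2, MT-CO1, MT-CO3, MT-ATP6, MT-ND3, MT-ND4, MT-ND1, MT-CYB, MT-RNR1, MT-ND2, MT-ND6, MT-ND4L and MT-ND5. Of the 14 pairs of neighbours in this order, 10 overlapped in their ranges over the libraries. The 4 that did not were MT-ATP8 above MT-RNR2, MT-CO3 above MT-ATP6, MT-ND1 above MT-CYB and MT-ND4L above MT-ND5. Per annotated length the order opened with MT-RNR2, MT-CO1, MT-CO2, MT-CO3 and MT-ATP6 and closed with MT-ND5, MT-ND6, MT-ND3 and MT-ND4L. On that scale 12 pairs of neighbours overlapped, and the 2 that did not were MT-RNR1 above MT-ND5 and MT-ND3 above MT-ND4L. The 3 members under 400 bases, MT-ATP8, MT-ND4L and MT-ND3, thus moved from places 1, 14 and 7 to places 8, 15 and 14.

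**Figure D2:**
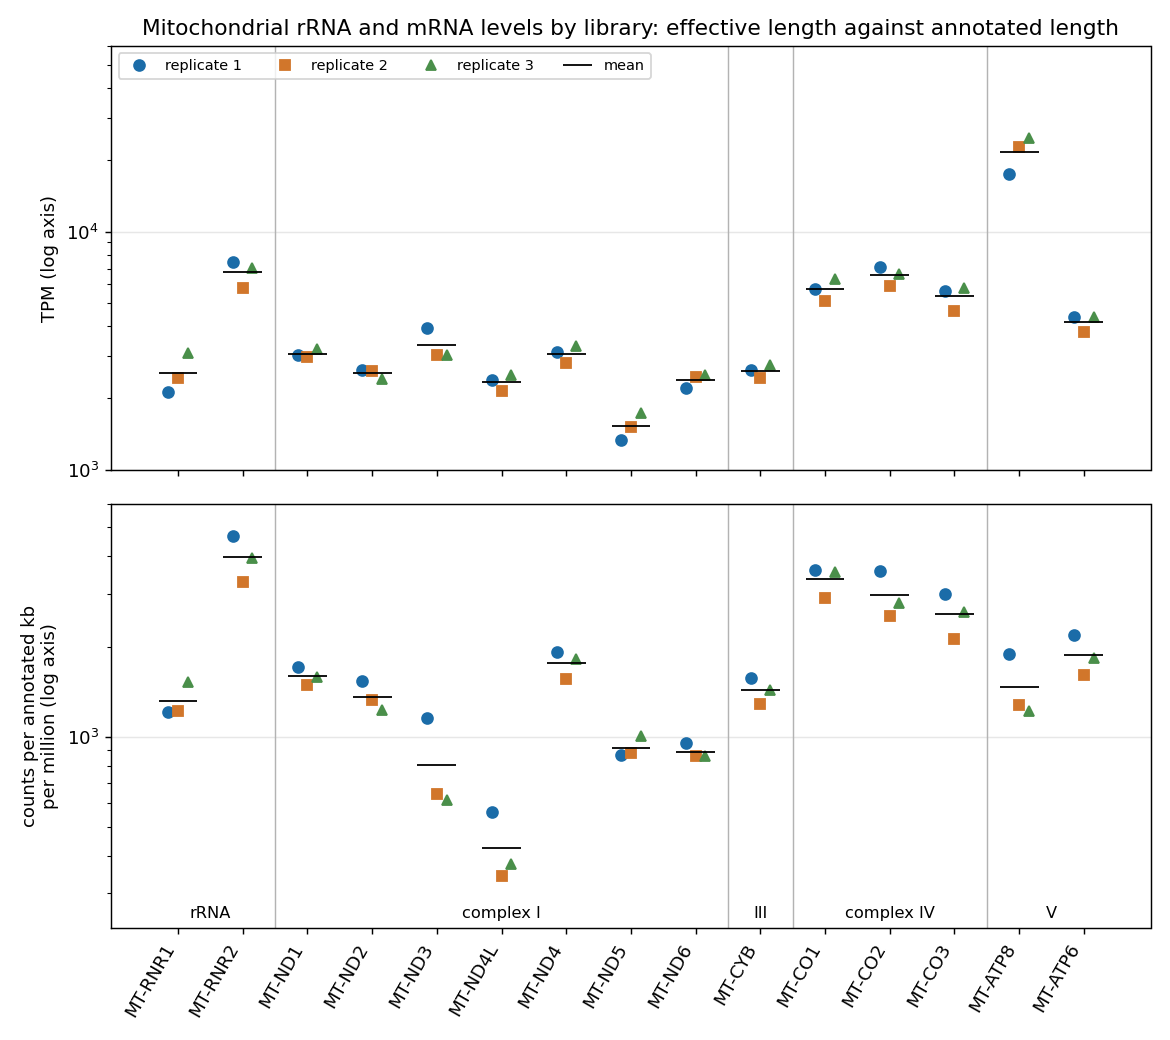
Level of each mitochondrial rRNA and mRNA in the 3 libraries, as TPM (top) and as CPM per annotated kilobase (bottom), both on log axes, grouped by ribosomal RNA and by complex; symbols are libraries and black lines means. The complex IV genes lie above the complex I genes in both panels, whereas MT-ATP8 is first in the top panel (mean 21581 TPM) and eighth in the bottom panel (mean 1461).

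By strand, 28 members are transcribed from the heavy-strand promoters, namely 12 mRNAs, both rRNAs and 14 tRNAs, and 9 from the light-strand promoter, namely MT-ND6 and 8 tRNAs. Light-strand transcripts held 1.61%, 1.86% and 1.61% of the mitochondrial counts, nearly all of them on MT-ND6. MT-ND6 (ENSG00000198695.2, chromosome M, 14149 to 14673, minus strand), a complex I subunit, had 17318, 17383 and 13557 expected counts and 2202, 2445 and 2499 TPM. This was 0.623, 0.812 and 0.766 of the median of the 12 heavy-strand mRNAs by TPM, and 0.529, 0.613 and 0.570 of it per annotated length. MT-ND6 lay below that median in all libraries on either scale. Against MT-ND5, its neighbour on the other strand, MT-ND6 was 1.64, 1.61 and 1.44 times higher by TPM, but 1.10, 0.976 and 0.858 times as high per annotated length, so the latter comparison changed direction between libraries. The MT-ND6 mRNA has 35.6% G and 7.05% C, whereas the heavy-strand mRNAs have 6.28% to 16.2% G and 29.5% to 36.0% C. The sources used here give no strandedness for the counting, so reads of MT-ND6 and reads of heavy-strand RNA from the same bases cannot be told apart.

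Along the genome the mean level per annotated length fell and rose rather than declining steadily with distance from the heavy-strand promoters. It was 1316 for MT-RNR1 and 3973 for MT-RNR2, then 1593 for MT-ND1 and 1362 for MT-ND2. MT-CO1 and MT-CO2 followed at 3351 and 2961, MT-ATP8 and MT-ATP6 at 1461 and 1875, and MT-CO3 at 2576. The level was lowest at MT-ND3 (806) and MT-ND4L (426), was 1763 at MT-ND4, 917 at MT-ND5 and 1429 at MT-CYB. Short genes rank lower on this scale than by TPM, where MT-ND3 (mean 3344) lay above MT-ND4 (3080). For MT-ND4L the effective length was 32.1%, 23.7% and 22.2% of the annotated length in replicates 1, 2 and 3. MT-ND4L and MT-ND4 also lie on 1 mRNA, so their difference cannot be read as a change along the genome. As to their ends, 6 of the 13 mRNAs (MT-ND1, MT-ND2, MT-CO3, MT-ND3, MT-ND4 and MT-CYB) stop inside a codon in the annotated sequence, which the poly(A) tail is known to complete to a stop codon.

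**Figure D3:**
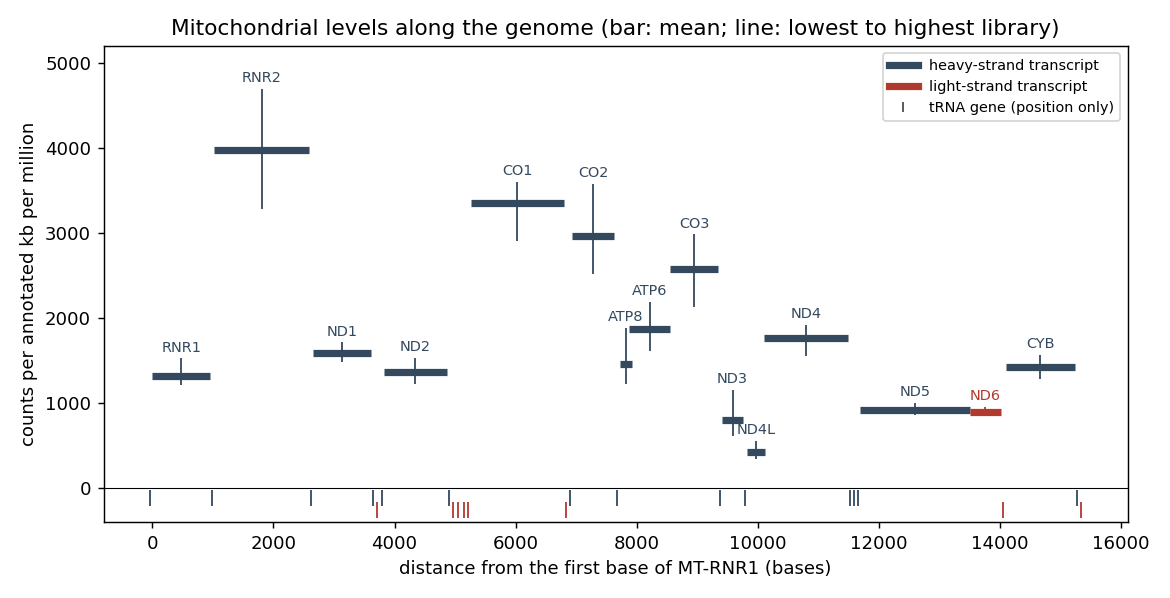
Mean CPM per annotated kilobase of each mitochondrial rRNA and mRNA against the distance from the first base of MT-RNR1; thick bars span the gene, thin lines run from the lowest to the highest library, red marks light-strand transcripts and ticks below 0 mark tRNA genes, with no level. The level is highest at MT-RNR2 (3973) and lowest at MT-ND4L (426), with MT-ND6 (891) beside MT-ND5 (917). Short genes rank lower on this scale than by TPM, where MT-ND5 is the lowest.

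The 22 tRNA genes are 59 to 75 bases long, and each has a deposited effective length of 0 in all libraries, so their TPM is listed at 0 whatever their counts. Only 5 of them had a count in any library. In replicate 1 MT-TA had 5 counts, MT-TS1 had 2, and MT-TY, MT-TL2 and MT-TE had 1 each. In replicate 3 MT-TA and MT-TY had 1 count each, and in replicate 2 all 22 were at 0. The Poisson 95% intervals of the summed counts were 4.80 to 18.4, 0 to 3.69 and 0.242 to 7.22 in replicates 1, 2 and 3. These cover counting error only. As background, mature mitochondrial tRNAs carry no poly(A) tail, and the abundance of these tRNAs was not measured by these values.

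Some mitochondrial genes have near-identical copies in the nuclear genome, which can take part of their reads. By symbol, 404 pseudogenes of mitochondrial genes were listed, whatever their identity to the source. Of these, 18, 23 and 52 had any count in replicates 1, 2 and 3, with 8382, 5127 and 4410 counts in sum. This was 0.780%, 0.549% and 0.524% of the mitochondrial counts. MTATP6P1 (ENSG00000248527.1, chromosome 1, 633696 to 634376), the copy of MT-ATP6, held 91.9%, 89.0% and 88.0% of it. Its expected counts were 7706, 4564 and 3882, or 13%, 9.77% and 9.42% of the counts of MT-ATP6 and MTATP6P1 together. The 2 sequences have the same length and differ at 10 of 681 bases (98.5% identity), and the longest identical stretch has 141 bases. Counted from the first base of MT-ATP6, with its base first, the differences are G19A, C129T, A151C, A175G, A192G, A334G, C417T, C534A, C549T and C642T. The stretch with 4 of them, positions 121 to 200, shows how little separates the 2 genes (differences in capitals, 5′ to 3′, GENCODE release 29).
MT-ATP6, chrM:8647-8726: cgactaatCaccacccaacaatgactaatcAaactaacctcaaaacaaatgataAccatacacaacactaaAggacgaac
MTATP6P1, chr1:633816-633895: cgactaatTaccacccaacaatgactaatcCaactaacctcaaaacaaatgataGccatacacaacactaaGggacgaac

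The other copies in the same stretch of chromosome 1 took far fewer reads. MTCO1P12 had 528, 467 and 375 counts, or 0.274%, 0.271% and 0.228% of those of MT-CO1 and the copy together, at 98.7% identity. MTND2P28, at 98.4% identity to MT-ND2, had 116, 54.4 and 23.1 counts. MTND1P23, MTCO2P12, MTATP8P1 and MTCO3P12, named after their values were seen, had 5.27, 2, 0 and 4.02 counts in replicate 1. The remaining copies named by count, MTND5P1, MTND5P11 and MTATP6P27, had at most 19 counts in a library. Their identity over the aligned bases was 62.1%, 93.0% and 71.3%. The members whose deposited counts were not whole in all libraries were MT-ND1, MT-ND2, MT-CO1 and MT-ATP6 (whole in 0 of 3) and MT-CO3 (whole in 2 of 3), each with a copy in that stretch. MT-CO2 and MT-ATP8, which also have a copy there, had whole counts in 3 of 3. The sum of member and copy was whole in 3 of 3 libraries for MT-ND2, MT-CO1, MT-ATP6 and MT-CO3 and in 2 of 3 for MT-ND1. The levels of these members are uncertain by the share that the copies hold, which was largest for MT-ATP6.

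No mitochondrial gene passed a test for excess spread between replicates. In edgeR's intercept-only fit across 17046 genes, which asks whether a gene's counts spread more over the libraries than genes of its abundance do, 0 of the 15 mRNA and rRNA members passed a Benjamini-Hochberg adjusted p of 0.05, against 1.59% of all genes tested. At an unadjusted p under 0.05 there was 1 of 15, against 7.35% of all genes, and with DESeq2's scaling and dispersion trend 0 of 15 passed, against 1.58% of all genes. The member with the smallest p was MT-ND3, with 404, 225 and 211 CPM after TMM scaling (log2 range 0.94, edgeR adjusted p = 0.404). MT-ND4L followed with 168, 102 and 110 CPM and MT-ATP8 with 394, 266 and 250 CPM, with edgeR adjusted p of 1.00 for each. The median log2 range over the libraries was 0.35 for members, 0.42 for all genes tested and 0.32 for the 1701 other genes at least as abundant as the lowest member. In simulated data the test recovered 8% of genes changed 2-fold in 1 library and 84% of those changed 4-fold.

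On the scale of TMM-scaled CPM, 13 of the 15 members had their highest level in replicate 1, where 40.8% of all genes tested did, as did 46.9% of those 1701 abundant genes. MT-RNR1 and MT-ND5 were the exceptions, highest in replicate 3. On the TPM scale only 5 of the 15 were highest in replicate 1 and 10 in replicate 3, so the order of the libraries depended on the scale. TPM differs from CPM both in its length scaling and in its library-wide sum, and these parts were not separated here. A share over all genes is not given on the TPM scale. Replicate 2 was the highest library for no member on either scale. The difference between replicate 1 and the mean of the other two, in log2 CPM, had a median of 0.28 over members and -0.0053 over all genes tested. It was 0.89 for MT-ND3, 0.66 for MT-ND4L and 0.61 for MT-ATP8, and between -0.16 and 0.45 for the 12 members of 400 bases or more. Over the 15 members it fell with annotated length (Spearman's rho -0.55, Pearson's r -0.71 on log2 length, given as a description of genes that share libraries and transcripts). By TPM the same difference had a median of 0.030, with 0.38 for MT-ND3, 0.037 for MT-ND4L and -0.45 for MT-ATP8.

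Several measures of the libraries moved with replicate 1. Annotated minus effective length, which follows the mean fragment length, was 216 bases in replicate 1 and 253 and 259 bases in replicates 2 and 3. The 6 neuron markers summed to 0.164%, 0.0860% and 0.0738% of counts in replicates 1, 2 and 3, and the 6 mesenchyme and neural crest markers to 0.114%, 0.225% and 0.157%. Most of the neuron sum came from NEFM (485, 241 and 176 TPM) and TUBB3 (478, 324 and 323 TPM). With SYT1 these were 3 of 6 neuron markers highest in replicate 1 by TPM, and GAP43, DCX and SNAP25 were not, nor was the list median (34.3, 35.7 and 27.1 TPM). Of the mesenchyme and neural crest markers 5 of 6 were lowest in replicate 1 by TPM, and SOX10 was highest there (29.1, 22.4 and 15.2 TPM). The 8 neural progenitor markers summed to 0.349%, 0.339% and 0.301% of counts. Among them SOX2 (97.8, 46.3 and 63.4 TPM), HES1 (35.5, 13.3 and 15.8 TPM) and SOX1 (8.16, 3.28 and 5.19 TPM) were highest in replicate 1. VIM, NES, CDH2, MSI1 and PAX6 were not. With the effective length of each gene and library as an offset in the same edgeR fit, 0 of the 15 members passed, against 1.44% of all genes, and the MT-ND3 adjusted p was 1.00. The part of the cell markers in the differences between libraries was not tested. In bulk RNA, fewer cells of a type and less RNA per cell cannot be told apart.

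**Figure D4:**
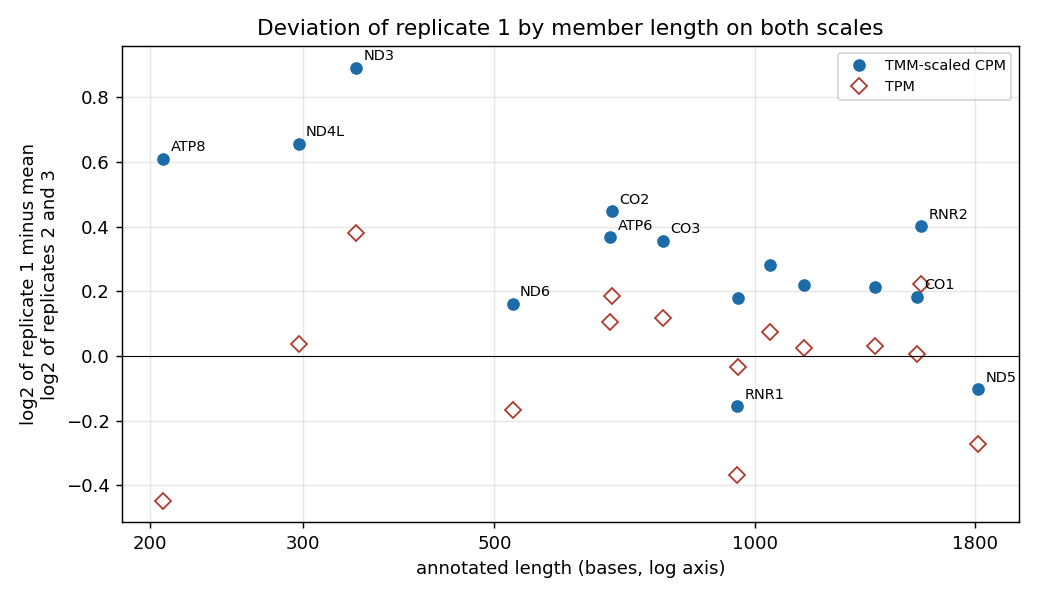
Log2 level of replicate 1 minus the mean log2 level of replicates 2 and 3 for each of the 15 mitochondrial mRNAs and rRNAs, against annotated length on a log axis; filled circles are TMM-scaled CPM and open diamonds TPM. The 3 members under 400 bases lie at 0.61 to 0.89 by CPM, and by TPM MT-ATP8 lies lowest at -0.45.

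The nuclear genome encodes the other subunits of the same complexes, and all of those listed were below the mitochondrial ones. All 74 nuclear subunit genes of complexes I, III, IV and V reached a TPM of at least 1 in all libraries. Their median was 244, 222 and 189 TPM, against 3115, 2988 and 3213 TPM for the 13 mitochondrial mRNAs, a ratio of 12.8, 13.4 and 17.0. The lowest mitochondrial mRNA, MT-ND5 at 1532 ± 196 TPM, stood above the highest nuclear subunit, ATP5MF at 1111 ± 67.1 TPM, so the 2 groups did not overlap in mean TPM. The 74 nuclear genes together took 0.873%, 0.686% and 0.643% of the counts and the 13 mitochondrial mRNAs 2.25%, 1.80% and 2.04%.

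By complex, the mitochondrial median exceeded the nuclear median 15.4 ± 0.36 times for complex I (37 nuclear genes), 15.7 ± 2.1 times for complex III (9 genes, against MT-CYB alone) and 12.7 ± 2.3 times for complex IV (11 genes). For complex V (17 genes) the ratio was 38.6 ± 9.9, with a mitochondrial median that averages MT-ATP6 and MT-ATP8. MT-ATP6 alone stood 11.5, 11.1 and 14.5 times above the nuclear median (12.4 ± 1.9), an alternative chosen after seeing the data. In complex I the highest nuclear genes were NDUFS5 at 1057 ± 63.7 TPM, NDUFA13 at 487 ± 49.2 TPM and NDUFB1 at 376 ± 43.9 TPM, and the lowest were NDUFS1, an iron-sulfur subunit, at 51.4 ± 5.4 TPM and NDUFV3 at 19.7 ± 1.4 TPM. In complex III UQCRH led at 1039 ± 108 TPM and UQCRFS1, the Rieske protein gene, was lowest at 34.2 ± 7.1 TPM. COX8A led complex IV at 794 ± 80.7 TPM, and COX7B was lowest at 86.4 ± 41.8 TPM with 133, 72.2 and 53.5 TPM in replicates 1, 2 and 3. In complex V ATP5ME followed ATP5MF at 788 ± 22.9 TPM, and ATP5F1E was lowest at 42.4 ± 4.7 TPM. Complex II, the succinate dehydrogenase that has no mitochondrial gene, had a median of 68.0 ± 3.7 TPM over 4 genes, from SDHD at 45.0 ± 4.8 to SDHC at 188 ± 6.2 TPM.

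**Figure D5:**
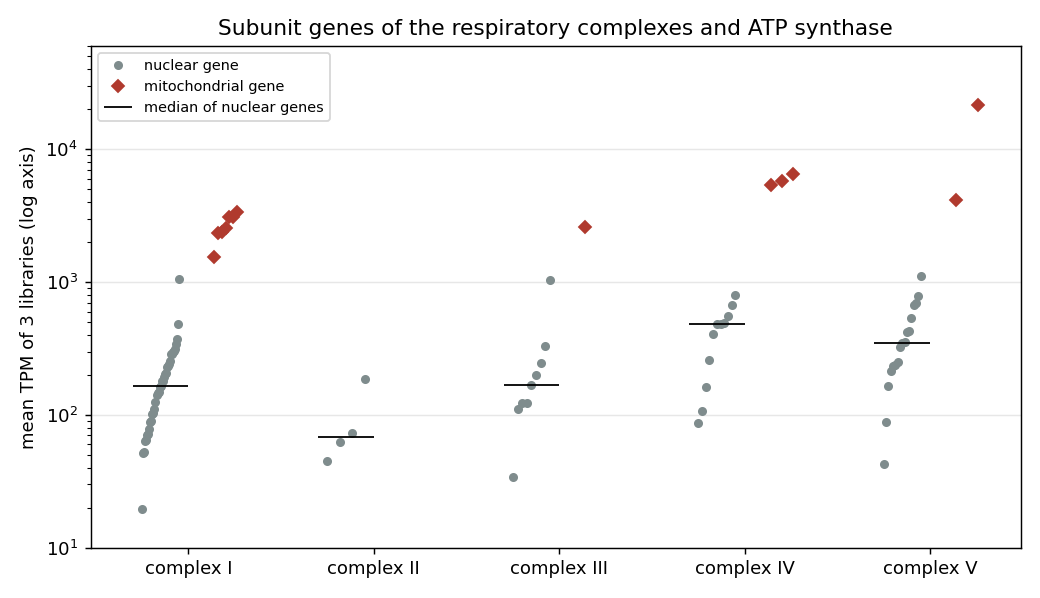
Mean TPM over the 3 libraries, on a log axis, of the nuclear (grey circles) and mitochondrial (red diamonds) subunit genes of complexes I to V; black lines are medians of the nuclear genes. In each complex that has mitochondrial genes these lie above all nuclear ones, the lowest of them MT-ND5 at 1532 TPM against a highest nuclear value of 1111.

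The listed nuclear genes that copy, transcribe and process the mitochondrial genome were all below every mitochondrial mRNA in mean TPM. Of 10 genes of mitochondrial DNA transcription and replication 10 reached a TPM of at least 1 in all libraries, with a median of 22.9 ± 1.8 TPM. SSBP1, the single-stranded DNA-binding protein of the organelle, led at 370 ± 18.7 TPM, followed by TFAM, which packages and activates mitochondrial DNA, at 57.0 ± 10.9 TPM and the RNA polymerase gene POLRMT at 49.5 ± 3.2 TPM. The helicase gene TWNK stood at 15.1 ± 0.17 TPM and MTERF1 at 8.84 ± 0.051 TPM. Of 18 genes of RNA processing and stability 18 passed the same minimum, with a median of 36.1 ± 0.75 TPM. The highest were SLIRP at 372 ± 18.5 TPM and its partner LRPPRC, which stabilises mitochondrial mRNAs, at 124 ± 2.7 TPM, with HSD17B10, a subunit of the enzyme that cuts tRNA 5′ ends, between them at 202 ± 10.3 TPM. The poly(A) polymerase gene MTPAP was the lowest at 12.2 ± 0.89 TPM, after FASTKD3 at 12.9 ± 2.5 TPM.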

How the data were processed

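Polyadenylated RNA of 3 pNPC libraries was measured. Per the submitters' processing notes, the tools were RSEM 1.3.1, STAR 2.7.11a and Trim Galore 0.6.10 and the build GRCh38. The annotation release, read layout and strandedness are not stated there or in the labels. Per the file headers, the authors deposited RSEM gene tables: expected counts (not normalized), TPM and FPKM (both scaled by effective length), and lengths. RSEM divides reads that fit several genes, so counts of overlapping genes and of genes with copies can be uncertain. The counts of MT-ATP8, MT-ND4L and MT-ND4 were whole in all libraries. Their overlaps of 46 and 7 bases are far shorter than the fragments (annotated minus effective length 216 to 259 bases). A fragment could thus hardly fit both genes in full, and whole counts do not tell how fragments across a boundary were assigned.

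Here, CPM per annotated kilobase was computed from the deposited expected counts. Positions, strands and sequences came from GENCODE release 29 (GRCh38), whose lengths equalled the deposited ones for all 37 members. Copies were aligned with Biopython 1.88. After rounding of the expected counts, spread between libraries was tested with edgeR 4.0.16 in R 4.3.3 (TMM, filterByExpr, intercept only, trended dispersion, residual deviance against a chi-square with 2 degrees of freedom, Benjamini-Hochberg over all genes). It was tested on simulated data (16698 genes, 2 unchanged genes called). DESeq2 1.42.0 was an alternative. Python 3.11.15, pandas 2.3.3, numpy 2.4.6, scipy 1.17.1 and matplotlib 3.10.9 were used. Library pairs differed beyond sampling noise over genes with at least 20 counts. The chi-square per degree of freedom was 82.5 and 82.6 for replicate 1 against replicates 2 and 3, and 19.4 for replicate 2 against replicate 3. Members and gene lists were chosen with earlier results of these data known. All members may be named, as may the 3 highest and 2 lowest genes of each nuclear list and the 6 copies of highest count.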

Additional observations from a re-analysis of the deposited data

How the results depend on the processing

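Length scaling changed the ratios of overlapping genes. MT-ATP8 over MT-ATP6 was 2.36 in log2 TPM, -2.09 in expected counts and -0.38 per base of annotated length, a reversal that follows from the lengths used as divisors. MT-ND4L over MT-ND4 was -0.40 in log2 TPM, -4.29 in counts and -2.08 per annotated base. As shares of TPM, mitochondrial genes took 7.36% of the total, rRNAs 12.6% and light-strand transcripts 3.24% of the mitochondrial sum, against 2.78%, 26.8% and 1.70% of counts. Complex IV over complex I was 1.15 log2 units, 1.54 per annotated length and 0.95 without MT-ND6 and MT-ND4L, and mitochondrial over nuclear subunits was 3.83 log2 units, 3.96 per annotated length and 4.18 with means of members. Added nuclear copies moved none of the shares of counts by more than 1 SD between libraries. A pseudocount of 0.1, a TPM filter and FPKM moved no ratio that far, but they hardly could. FPKM ratios equal TPM ratios within a library, the TPM filter removed no subunit gene, and a pseudocount of 0.1 is small against these levels. The omission of any 1 replicate also stayed within 1 SD, but with 3 libraries it cannot shift a mean further than that. TPM minimums of 0.5 and 5 left 15 members detected. The count of members with excess spread was 0 under every alternative run, while that of all genes was 271, and 95 to 117 without 1 replicate, where fewer libraries are compared. No paired analysis was possible because the series has 1 group. For complex V the mitochondrial over nuclear ratio of 38.6 became 12.4 with MT-ATP6 alone, an alternative chosen after seeing the data. The lowest expected count of an mRNA or rRNA member was 3348 (MT-ND4L, replicate 3).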
